A study of Mus musculus with 2 samples.

Results

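Axon guidance ligands and receptors were compared between mouse tooth and mouse skin. The genes were chosen by name alone: semaphorins, plexins, neuropilins, ephrins, Eph receptors, Slits, Robo receptors, netrins, Unc5 receptors and *Dcc*. The choice gave 69 of the 24323 named genes on the array, and they were read by 99 of its 33182 named probes. Of the 69 genes, 35 encode ligands and 34 encode receptors.

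Total RNA of wild-type mice, from tooth and from skin, was labelled with Cy3 and hybridised to Agilent 8×60K mouse expression arrays, 1 array per tissue. The methods give C57BL/6J as the wild-type strain. The labels put both tissues at postnatal day 0, while the methods name the following day, and the labels were followed. The labels do not say how many animals gave RNA, both samples are whole dissected tissues, and no difference below has a replicate check.

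Axon guidance molecules are cues and receptors that steer growing nerve fibres by attraction or repulsion. Semaphorins signal through plexins, in part with neuropilins as co-receptors. Ephrins are bound to the cell surface and bind Eph receptor tyrosine kinases on neighbouring cells. Slits bind Robo receptors, and netrins bind Dcc and Unc5 receptors. The same families also act outside the nervous system, in blood vessels, in epithelia and in mesenchyme. In teeth, semaphorin 3A is known as a cue that times the entry of sensory nerves into the dental mesenchyme.

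Levels are log2 intensities after subtraction of each array's 75th percentile, so 0 is the 75th percentile of that array, and each difference is skin minus tooth. Levels of different genes come from different probes and are not set against each other. Sums over marker lists add such levels, so the brightest probes weigh most in them. A gene was counted as measured where its brightest probe was called well above background on at least 1 array. The scatter between repeated spots gave a difference an SD of 0.12, and the error that the extraction software attached to a measured gene's difference had a median of 0.20 and a range of 0.20 to 0.86. Both leave out variation between animals, dissections and RNA preparations. Of all probes, 56.7% were well above background in tooth and 52.5% in skin. The labelled tissues carried their defining markers. All 6 ameloblast genes and all 6 odontoblast and bone genes were at least 2-fold higher in tooth, and 6 of 7 epidermal, 4 of 4 hair follicle, 5 of 5 melanocyte, 4 of 4 measured adipocyte and 6 of 6 measured skeletal muscle genes were at least 2-fold higher in skin.

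Of the 69 guidance genes, 62 were measured (89.9%, exact 95% interval 80.2 to 95.8, counting error only), against 17409 of all 24323 named genes (71.6%, 71.0 to 72.1). Both arrays read 60 of them, and *Epha3* and *Unc5c* cleared the background call in tooth alone. *Epha6*, *Epha10*, *Ntn5*, *Plxnb3*, *Robo3*, *Unc5a* and *Unc5d* were well above background on neither array. The 62 count *Dcc*, *Epha5*, *Ephb3*, *Sema4c* and *Sema6d* through probes with simple repeats, described below. Without probes that share 20 bases with other genes, 57 were measured.

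At least 2-fold higher in skin were 9 of the 62 genes (14.5%), beside 14.2% of all measured genes. At least 2-fold higher in tooth were 18 (29%), beside 15.5% of all measured genes, and 35 lay within 2-fold. Past 4-fold there were 3 genes on the skin side (background 7.41%) and 11 on the tooth side (background 6.29%). With this scaling, the 2-fold share on the skin side was near that of all genes, and the share on the tooth side was higher. Scaling to the spike-in transcripts moved the median of all genes by -0.62. The split of the 62 guidance genes went from 9 and 18 to 6 and 24, with backgrounds of 9.04% and 32.4%. The tooth-side share then lay nearer to its background. Spike-in scaling took 18 of the 62 genes from the skin side of 0 to the tooth side, none of them past 2-fold. The median difference was -0.13 over the guidance genes and -0.04 over all genes.

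**Figure D1:**
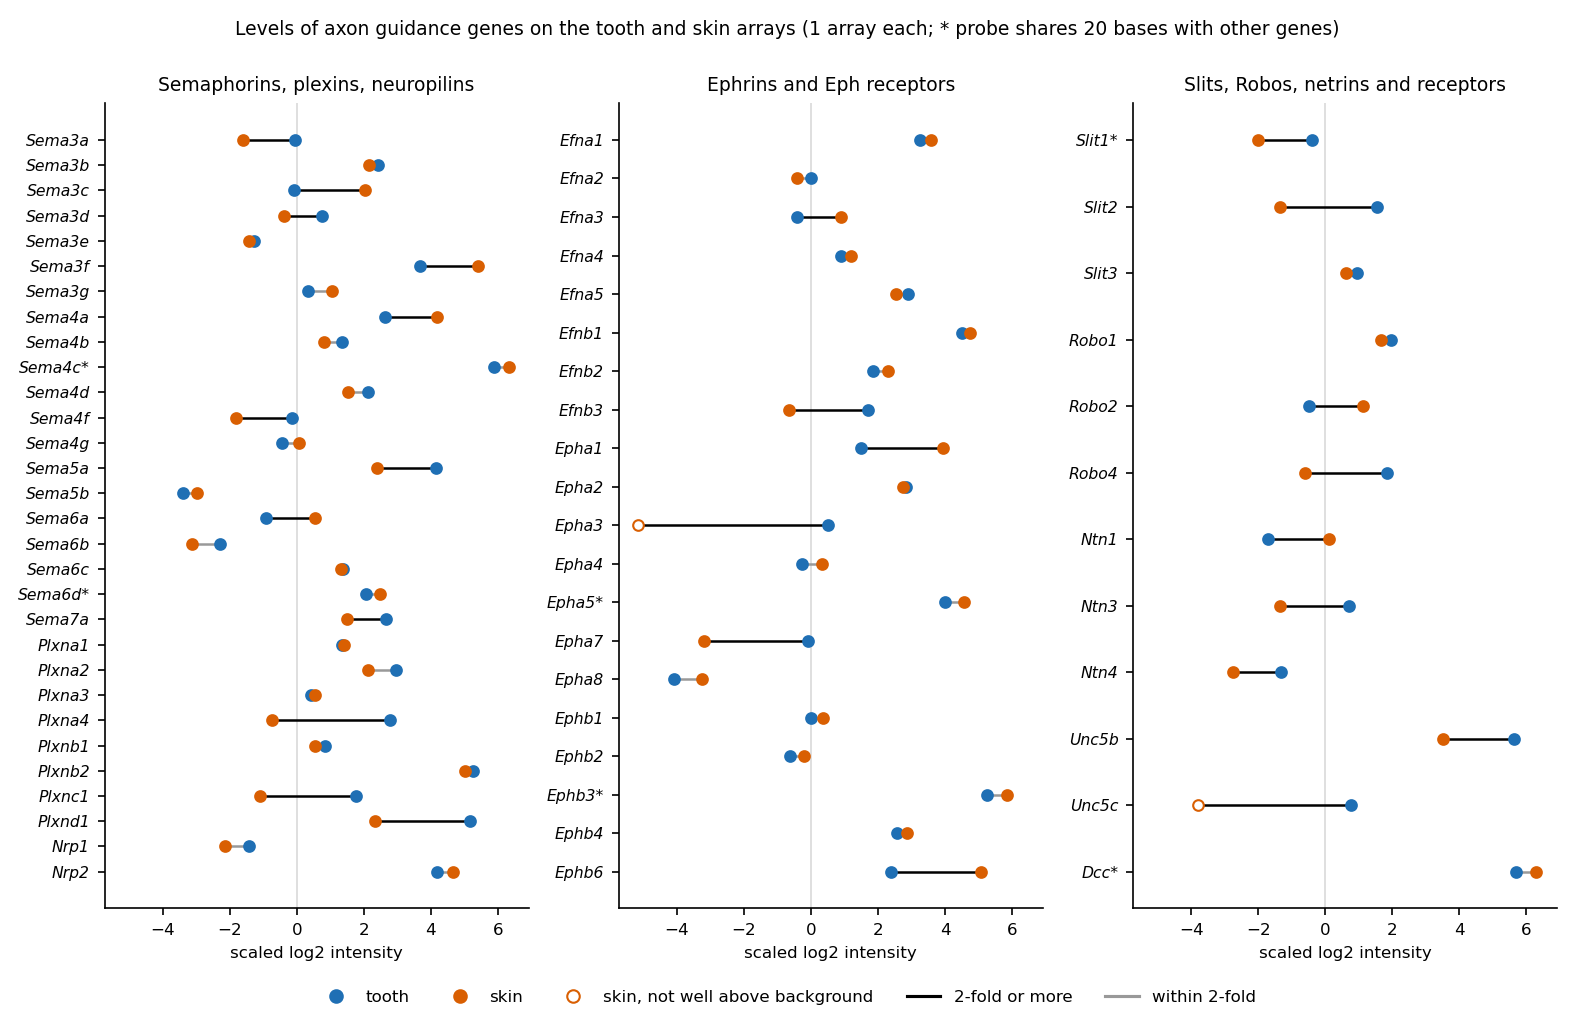
Scaled log2 intensity (horizontal axis, 0 is the array's 75th percentile) of each of the 62 measured guidance genes on the tooth array (blue) and the skin array (orange), joined by a black line where they differ by 2-fold or more. Open circles are skin values not well above background, as for *Epha3* and *Unc5c*, and an asterisk marks a probe that shares 20 or more consecutive bases with a probe of another gene.

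Before the values are read, 5 of the brightest probes need a separate account, because they carry simple repeats that occur in probes of many genes. The probes that stand for *Epha5*, *Ephb3*, *Sema4c* and *Sema6d* hold a run of alternating T and G, and the probe that stands for *Dcc* holds a GAA repeat. The stretches that hold the run are shown, 30 of each probe's 60 bases, 5′ to 3′, with the run in capitals.
Epha5: acatcgaaatTGTGTGTGTGTGTGTGTGTG
Ephb3: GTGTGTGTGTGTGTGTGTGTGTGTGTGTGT
Sema4c: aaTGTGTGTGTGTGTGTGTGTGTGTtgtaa
Sema6d: agaggggcgaGTGTGTGTGTGTGTGTGTGT
In mm9 these probes lie at chr5:84487348-84487407 on the minus strand for *Epha5*, chr16:21223165-21223224 on the plus strand for *Ephb3*, chr1:36605998-36606057 on the minus strand for *Sema4c* and chr2:124491609-124491668 on the plus strand for *Sema6d*. The run is 20 bases long in *Epha5* and *Sema6d*, 23 in *Sema4c* and 33 in *Ephb3*. These probes share 20 or more consecutive bases with probes of 48 (*Epha5*), 51 (*Ephb3*), 53 (*Sema4c*) and 50 (*Sema6d*) other genes, and the *Dcc* probe with probes of 42.

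All 5 read bright and alike on both arrays. *Epha5* stood at 3.99 in tooth and 4.56 in skin, *Ephb3* at 5.25 and 5.84, and *Sema4c* at 5.88 and 6.34. *Sema6d* stood at 2.06 and 2.47, and *Dcc*, a netrin receptor of nerve cells, at 5.69 and 6.29. Their differences lay between 0.41 and 0.60, a narrow band.

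Probes of unrelated genes with the same runs lay in that band too. A run of 10 TG or GT units was found in 48 probes of 48 named genes, 44 of them no guidance genes. All 48 were well above background on both arrays and none differed by 2-fold, with a median difference of 0.49 and a range of 0.35 to 0.92. Of the named probes that share no 20 bases and were read on both arrays, 23% differed by 2-fold or more. The 7 probes with 6 GAA units had a median of 0.59 (0.47 to 0.92). Before scaling, the median difference of the TG probes was -0.15 and that of the spike-in transcripts -0.009. Scaling added 0.63 to every difference.

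Where such a gene had another probe, that probe gave another reading. Both other probes of *Epha5* were well above background on neither array. The other *Sema6d* probe read -2.69 in tooth and was not well above background in skin, at least 2.06-fold higher in tooth, where the bright probe gave 0.41 on the skin side. It lies at chr2:124490948-124491007 on the plus strand, and its first 30 bases hold no run.
Sema6d, other probe: taaagaggacaccatccttaaaacctgatg

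Both other probes of *Dcc* were well above background on neither array. The file places the bright *Dcc* probe on chromosome 7 and the others on chromosome 18. *Ephb3* and *Sema4c* had no other probe. *Slit1* had its sole probe share 20 bases with a probe of 1 other gene. Without the sharing probes 57 guidance genes were measured, 9 at least 2-fold higher in skin (15.8%, background 14.3%) and 18 in tooth (31.6%, background 15.9%), and the median was -0.26. The 18 in tooth were not the same genes, as *Slit1* dropped out and *Sema6d* came in with its bound of 2.06-fold. What these 5 probes bound in each tissue was not tested, so their values are not read as levels of the named genes.

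**Figure D2:**
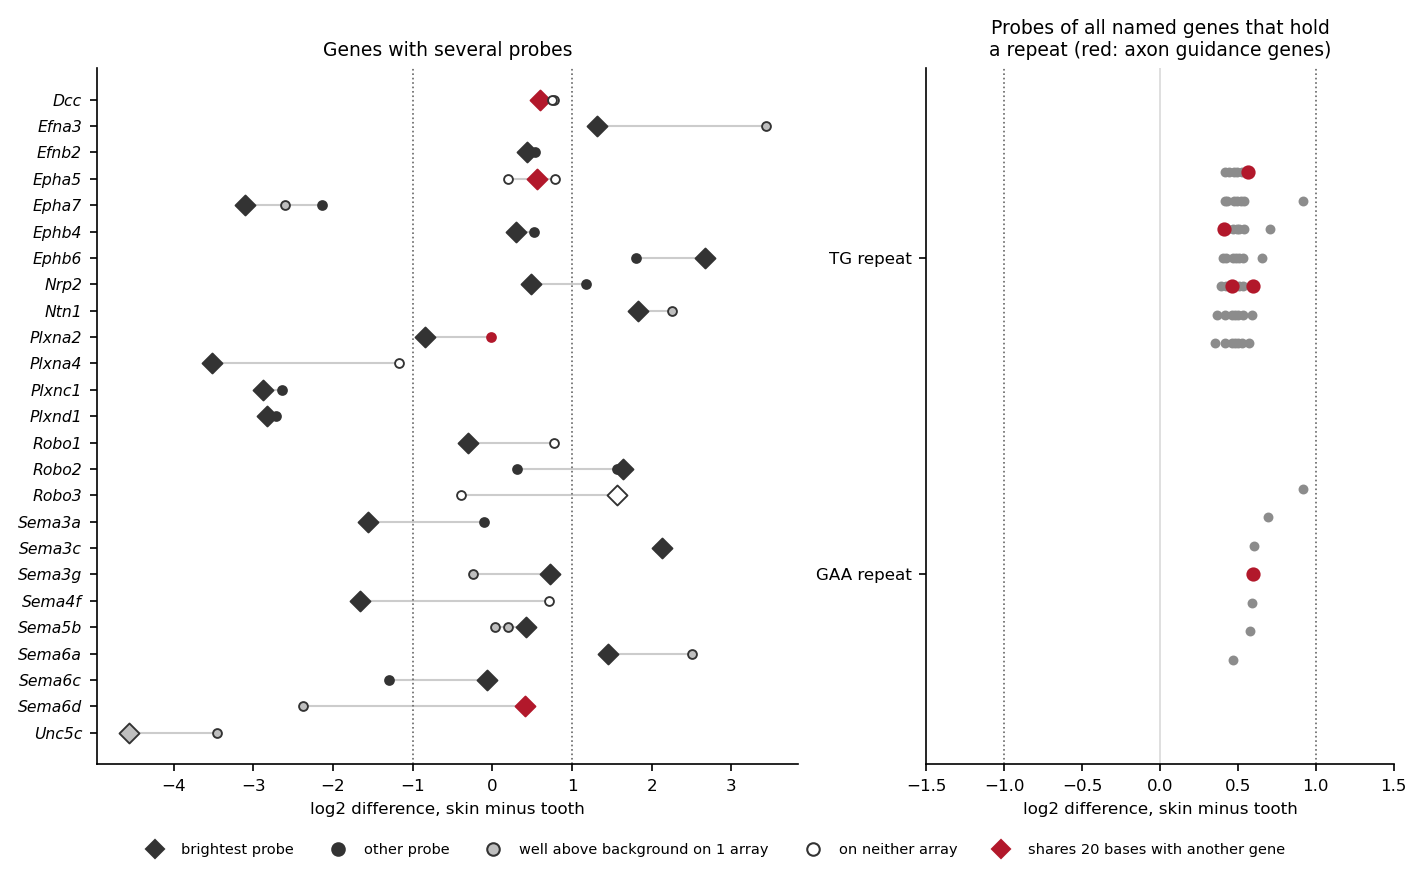
Left, log2 difference skin minus tooth of every probe of the 25 guidance genes with several probes, where diamonds are the brightest probes, circles the others, red marks shared sequence and pale or open symbols are probes well above background on 1 array or on neither. Right, the same difference for all 48 probes with a TG run and all 7 with a GAA repeat, which lie between 0.35 and 0.92 whether or not they belong to guidance genes (red).

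Among the semaphorins, all 20 genes were measured, and the median difference was -0.11. By 2-fold or more, 4 were higher in skin (20%) and 5 in tooth (25%), beside 14.2% and 15.5% of all measured genes. Class 3 semaphorins are secreted, and classes 4 to 7 are membrane-bound. *Sema3c*, a cue for neural crest and vessel cells, stood at -0.09 in tooth and 2.04 in skin, a 4.38-fold difference. *Sema3f*, a repellent that acts through neuropilin 2, stood at 3.69 and 5.41, 3.28-fold higher in skin. Skin was the high tissue for both, and *Sema3c* was the semaphorin with the largest difference. Its probes lie at chr5:17235981-17236040 and chr5:17234078-17234137 on the plus strand, and their first 30 bases are shown because they gave the same answer at separate positions, 2.13 and 2.09.
Sema3c, brightest probe: ccctgtgtagagaaagcaaactagatgtag
Sema3c, other probe: acgtaaagtcaagagtgactcataaagagc

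Membrane semaphorins on the skin side were *Sema4a* and *Sema6a*. *Sema4a*, which acts on lymphocytes and on vessel cells, stood at 2.63 in tooth and 4.17 in skin, 2.91-fold higher in skin. *Sema6a*, a ligand of A-type plexins, stood at -0.91 and 0.54, 2.74-fold higher in skin. Another *Sema6a* probe cleared the background call in skin alone. Under spike-in scaling *Sema4a* and *Sema6a* kept their direction with 0.92 and 0.83, short of 2-fold.

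On the tooth side were 2 secreted and 3 membrane-bound semaphorins. *Sema5a*, which carries thrombospondin repeats, stood at 4.16 in tooth and 2.39 in skin, 3.42-fold higher in tooth. *Sema7a*, which is held in the membrane by a lipid anchor, stood at 2.65 and 1.49, and *Sema3d* at 0.74 and -0.38, 2.24-fold and 2.17-fold higher in tooth. *Sema4f* stood at -0.16 and -1.82, 3.16-fold higher in tooth. With normexp background correction *Sema4f* and *Sema3d* fell short of 2-fold, at -0.97 and -0.94.

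*Sema3a*, the repellent known from tooth innervation, stood at -0.04 in tooth and -1.61 in skin, 2.96-fold higher in tooth by its brightest probe. Its other probe, also read on both arrays, stood at -2.53 and -2.63, a difference of -0.10. The probes had the same sign and differed by 1.47, the largest gap between probes of any guidance gene compared, and the mean over both was -0.83, short of 2-fold. They lie at chr5:13602462-13602521 and chr5:13473453-13473512, and the exons under them were not analysed here.

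The remaining semaphorins with probes free of runs lay within 2-fold. *Sema3b* differed by -0.26, *Sema3e* by -0.16, *Sema4b* by -0.53 and *Sema4d* by -0.61. *Sema3g* differed by 0.72, *Sema4g* by 0.53 and *Sema5b* by 0.42, and the last of these was dim in both tissues, at -3.40 and -2.98. *Sema6b* read -2.30 in tooth and -3.13 in skin, which differ by -0.83. *Sema6c* differed by -0.06 at its brightest probe but by -1.30 at its other probe, which stood at 1.47 in tooth and 0.16 in skin. Under spike-in scaling *Sema4g* and *Sema5b* turned to the tooth side, at -0.09 and -0.20, and *Sema4b*, *Sema4d* and *Sema6b* passed 2-fold on that side, whereas *Sema6b* differed by -0.09 with normexp.

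Plexins, the main semaphorin receptors, held 3 of the larger differences, and all 3 were on the tooth side. *Plxna4*, a receptor for class 3 and class 6 semaphorins, stood at 2.77 in tooth and -0.75 in skin, 11.5-fold higher in tooth. *Plxnc1*, the receptor for semaphorin 7A, stood at 1.77 and -1.11, 7.36-fold higher in tooth. *Plxnd1*, a receptor for semaphorin 3E that is prominent in vessel endothelium, stood at 5.18 and 2.34, 7.13-fold higher in tooth. The other probes of *Plxnc1* and *Plxnd1* gave -2.64 and -2.71, close to the -2.88 and -2.83 of the brightest ones. The other *Plxna4* probe was well above background on neither array.

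No plexin was 2-fold higher in skin. *Plxna1* and *Plxna3* differed by 0.06 and 0.12, and both turned to the tooth side under spike-in scaling and under a shift to the median. *Plxnb1* differed by -0.31, and *Plxnb2*, bright in both tissues at 5.25 and 5.01, by -0.24. *Plxna2* read 2.96 in tooth and 2.12 in skin, which differ by -0.85 (-1.47 under spike-in scaling), while its other probe gave -0.015. That other probe shares 20 bases with a probe of another gene and is placed on chromosome 13, where the first lies on chromosome 1.

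Both neuropilins, the co-receptors of secreted semaphorins, lay within 2-fold. *Nrp1*, which is also a receptor for vascular endothelial growth factor, read -1.41 in tooth and -2.13 in skin, which differ by -0.72, and passed 2-fold on the tooth side under spike-in scaling at -1.34. *Nrp2* stood at 4.17 and 4.65, a difference of 0.48 that became -0.14 under spike-in scaling. Its other probe, on a transcript with another accession, stood at 1.30 and 2.47, 1.17 higher in skin. Over semaphorins, plexins and neuropilins together, 4 of 30 measured genes passed 2-fold on the skin side (13.3%) and 8 on the tooth side (26.7%), beside 14.2% and 15.5% of all measured genes, and the median was -0.25 (-0.88 under spike-in scaling).

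Ephrins showed small differences apart from a pair of genes. *Efnb3*, an ephrin with a transmembrane domain, stood at 1.70 in tooth and -0.65 in skin, 5.11-fold higher in tooth. *Efna3*, which is anchored by a lipid, stood at -0.42 and 0.90, 2.49-fold higher in skin, and at 0.69 under spike-in scaling it was short of 2-fold. The other *Efna3* probe cleared the background call in skin alone and differed by 3.44, and the mean over both probes was 2.38. The other 6 ephrins differed by between -0.41 (*Efna2*) and 0.43 (*Efnb2*), less than the shift between the scalings, and *Efna2* passed 2-fold on the tooth side under spike-in scaling at -1.04. *Efna1*, *Efna4*, *Efnb1* and *Efnb2* were on the skin side by 0.23 to 0.43 and on the tooth side under spike-in scaling.

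Eph receptors divided into those high in skin, those high in tooth and a larger number near 0. *Ephb6*, a family member without kinase activity, stood at 2.40 in tooth and 5.07 in skin, 6.36-fold higher in skin, and its other probe gave 1.81 on the same side. *Epha1*, a receptor known from epithelia, stood at 1.48 and 3.94, 5.49-fold higher in skin. By brightest probe these were the largest skin-side differences of all guidance genes (the other *Efna3* probe differed by more), and they stood at 2.05 and 1.84 under spike-in scaling. The probes that carry them are shown by their first 30 bases and hold no run. The *Ephb6* probe lies at chr6:41570442-41570501 on the plus strand and the *Epha1* probe at chr6:42308583-42308642 on the minus strand.
Ephb6: cacccccaaatcctgctcttccaacagcct
Epha1: tcaatcagaactctgcctttgaaccaagga

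*Epha7* and *Epha3*, A-type receptors with roles in the sorting of axons and of mesenchyme, were on the tooth side. *Epha7* stood at -0.08 in tooth and -3.19 in skin, 8.62-fold higher in tooth. Its other probes gave -2.14 on both arrays and a value well above background in tooth only. *Epha3* stood at 0.51 in tooth and was not well above background in skin, at least 18.9-fold higher in tooth on the processed signal. With normexp background correction, which adds an offset of 50 to the signal, the differences of *Epha7* and *Epha3* were -1.71 and -2.74. The *Epha7* probe lies at chr4:28891069-28891128 on the plus strand and the *Epha3* probe at chr16:63545155-63545214 on the minus strand, and their first 30 bases are given for comparison with the run-bearing *Epha5* probe.
Epha7: tggccatcaaaagaagatcatgagcagcat
Epha3: acccagagaattatatgttcttttctacaa

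The remaining Eph receptors with probes free of runs lay within 2-fold. *Epha2*, an epithelial receptor, differed by -0.09, and *Epha4* by 0.58, which became -0.04 under spike-in scaling. *Epha8* was dim in both tissues, at -4.09 and -3.26. All 5 EphB receptors had the higher value in skin, *Ephb1*, *Ephb2* and *Ephb4* by 0.30 to 0.42, but 4 of the 5 turned to the tooth side under spike-in scaling, and *Ephb3* is read by a run-bearing probe. Over ephrins and Eph receptors together, 3 of 20 measured genes passed 2-fold on the skin side and 3 on the tooth side (15% each), near the 14.2% and 15.5% of all measured genes, with a median of 0.36 that became -0.26 under spike-in scaling.

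Slits, Robos, netrins and netrin receptors had most of their differences on the tooth side. Of 12 measured genes, 7 were at least 2-fold higher in tooth (58.3%) and 2 in skin (16.7%), beside 15.5% and 14.2% of all measured genes. The median was -1.52, and it was -0.52 with no filter, -0.74 with the lenient detection call and -0.87 with normexp. *Slit2*, a secreted repellent, stood at 1.55 in tooth and -1.34 in skin, 7.42-fold higher in tooth. *Slit1* stood at -0.39 and -2.00, 3.04-fold higher in tooth, with the limit on its probe given above. *Slit3* stood at 0.94 and 0.63, a difference of -0.30.

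The Robo receptors went different ways. *Robo4*, a receptor known from vessel endothelium, stood at 1.84 in tooth and -0.59 in skin, 5.38-fold higher in tooth. *Robo1* stood at 1.97 and 1.67, a difference of -0.30. *Robo2* stood at -0.50 in tooth and 1.14 in skin, a log2 difference of 1.63. Of the other *Robo2* probes, 1 gave 1.56 and the other 0.31, the latter matched to another transcript record, and the mean over all 3 probes, 1.17, still passed 2-fold.

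Among the netrins, *Ntn1* was on the skin side and *Ntn3* and *Ntn4* on the tooth side. *Ntn1*, the classical netrin, stood at -1.70 in tooth and 0.13 in skin, 3.56-fold higher in skin, and its other probe cleared the background call in skin alone. *Ntn3* stood at 0.71 and -1.35, 4.17-fold higher in tooth. *Ntn4*, a netrin of basement membranes, stood at -1.31 and -2.75, 2.70-fold higher in tooth, and at -0.64 it fell short of 2-fold with normexp background correction.

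Both measured Unc5 receptors, which mediate repulsion by netrins, were high in tooth. *Unc5a* and *Unc5d* did not pass the filter, and without it *Unc5a*, well above background on neither array, passed 2-fold on the skin side. *Unc5b*, also known from vessel endothelium, stood at 5.64 in tooth and 3.50 in skin, 4.42-fold higher in tooth. *Unc5c* stood at 0.78 in tooth and was not well above background in skin, at least 22.9-fold higher in tooth on the processed signal, while with normexp its difference was -2.65. Its other probe likewise cleared the call in tooth alone, at -0.82. Both *Unc5c* probes are on the plus strand, at chr3:141497142-141497201 and chr3:141492190-141492249, and their first 30 bases share no run with other genes.
Unc5c, brightest probe: aggagccagttgaagacatgactcgcattc
Unc5c, other probe: ccgttggtatcctttgggaacagagctcta

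**Figure D3:**
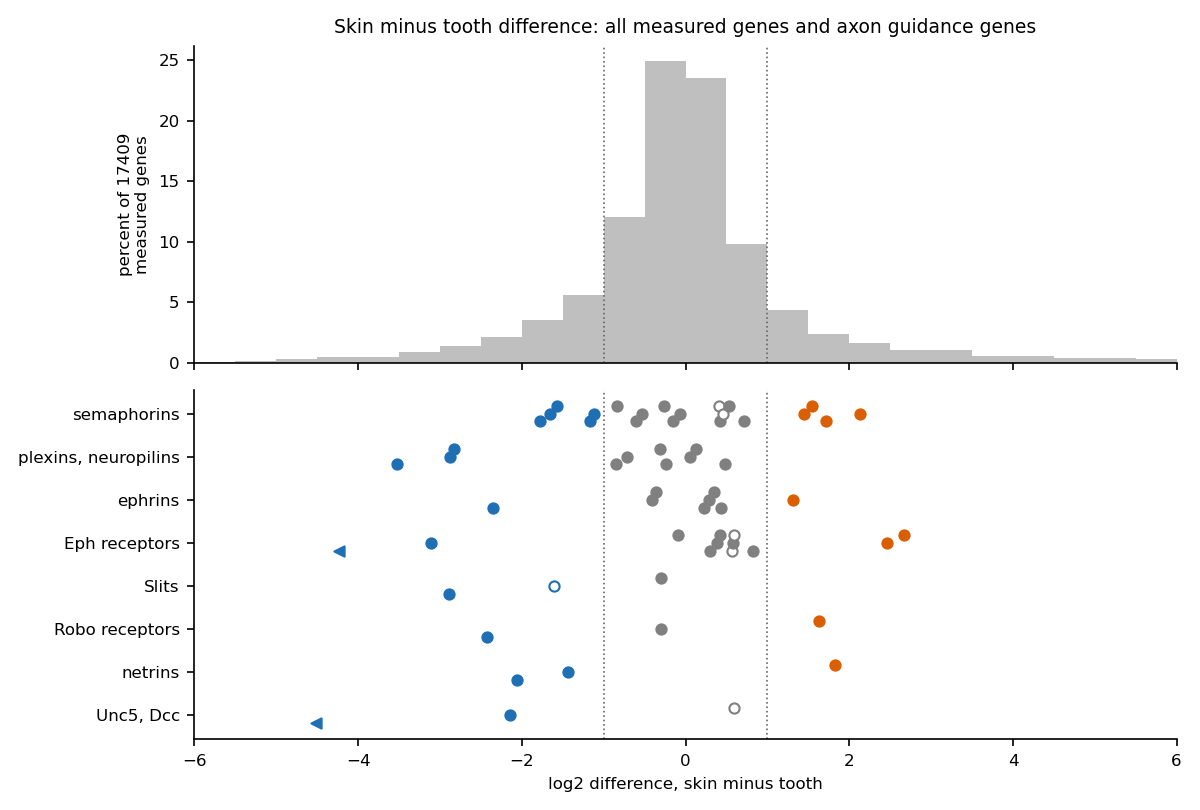
Top, share of the 17409 measured genes in each 0.5-wide interval of the log2 difference skin minus tooth, cut at -6 and 6. Bottom, the same difference for each measured guidance gene by family, with genes past 2-fold on the skin side in orange and on the tooth side in blue, triangles at the bound of *Epha3* and *Unc5c* and open circles for probes with shared bases. Dotted lines mark 2-fold, and all 3 plexins past it lie on the tooth side.

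Ligands and receptors were also set side by side for pairs known to bind each other, chosen after their values were seen. *Sema7a* and its receptor *Plxnc1* were both higher in tooth, by differences of -1.17 and -2.88. *Sema3e* lay near 0 at -0.16 while its receptor *Plxnd1* differed by -2.83. *Sema6a* was on the skin side at 1.45 and its receptor *Plxna4* on the tooth side at -3.52. *Slit2* was on the tooth side at -2.89, while *Robo1* differed by -0.30 and *Robo2* was on the skin side at 1.63. *Ntn1* was on the skin side at 1.83, whereas *Unc5b* and *Unc5c* were on the tooth side at -2.14 and beyond -4.52. *Ntn3* and *Ntn4* were on the same side as *Unc5b*, at -2.06 and -1.43. No count is drawn from these pairs. By role, 6 of 34 measured ligands passed 2-fold on the skin side and 10 on the tooth side (17.6% and 29.4%, beside 14.2% and 15.5% of all measured genes), with a median of -0.21. Of 28 measured receptors, 3 passed on the skin side and 8 on the tooth side against the same background, with a median of -0.02.

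Agreement between probes of a gene could be read for 12 guidance genes with several probes on both arrays. All 12 had the same sign at every such probe, and the median gap between the extreme probes was 0.76. For *Plxna2*, *Sema6c* and *Sema3a*, 1 of these probes gave only -0.015, -0.06 and -0.10. Those values are smaller in size than the SD of 0.12 from repeated spots. Over all 3241 named genes with exactly 2 such probes the median gap was 0.26, and 2491 had 1 sign. The sets differ in this, as *Robo2* among the guidance genes had 3 such probes. Gaps of at least 1 were found for *Sema3a*, *Robo2* and *Sema6c*, all described above. *Sema3g* had a second probe well above background in tooth only with -0.24, the opposite side from its brightest probe. The other *Sema6d* probe, also well above background in tooth only, gave -2.38, likewise opposite to its brightest probe.

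Both samples are mixtures of cell types, and in bulk tissue fewer cells of a type and less RNA per cell cannot be told apart. Of 9 blood endothelium markers, 8 were at least 2-fold higher in tooth, led by *Emcn* at -3.10 and *Cdh5* at -2.70, and *Pecam1* differed by 0.50. Their summed linear intensity was 45.1 times the 75th percentile in tooth and 12.0 times in skin. The list's median of -2.22 stood beside -2.83 for *Plxnd1*, -2.43 for *Robo4* and -2.14 for *Unc5b*, and its part in these results was not tested. Of 4 lymphatic markers 2 were measured, *Lyve1* at 2.22 and *Pdpn* at -2.29.

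Markers of neurons and axons were mixed. Of the list, 12 were measured, 6 of them at least 2-fold higher in tooth and 2 in skin, with a median of -0.61. Of those read on both arrays, *Map2* and *Pou4f1* were on the skin side at 2.63 and 1.81. *Tubb3* and *Stmn2* were on the tooth side at -3.17 and -1.16. *Isl1*, *Calca*, *Uchl1* and *Nefl* cleared the background call in tooth alone, at least 10.6-fold, 6.75-fold, 3.58-fold and 2.57-fold higher in tooth. Markers well above background on neither array included *Stmn3*, *Nefm*, *Prph*, *Elavl3*, *Scn9a* and *Scn10a*. The summed intensity of the list was 55.3 in tooth and 38.0 in skin, and it includes *Snap25*, whose probe shares 20 bases with probes of 21 other genes. Without *Snap25* the sums were 26.6 and 8.34, and the brightest marker left in tooth was *Tubb3*, at 4.37. Of 11 Schwann cell markers 9 were measured, with a median of -1.02 and summed intensities of 13.8 in tooth and 8.65 in skin. At least 2-fold higher in tooth were 5 of them, led by *S100b* at -2.39 and *Fabp7* at -2.37. The 2 in skin were *Sox10* at 3.21 and *Erbb3*. *Erbb3* cleared the background call in skin alone, at least 9.82-fold higher in skin. Neither *Foxd3* nor *Cdh19* was well above background on either array. The part of nerve tissue in the guidance gene results was not tested.

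Mesenchymal markers were mostly on the tooth side. Of 7 dental mesenchyme markers, 6 were at least 2-fold higher in tooth, led among those read on both arrays by *Dlx2* at -4.00 and *Dlx1* at -3.46. Of 7 dermal fibroblast markers, 4 were at least 2-fold higher in tooth, led by *Crabp1* at -3.48 and *Col1a1* at -3.17, and 1, *Dpt*, in skin. *Dpt* cleared the background call in skin alone, at least 18.7-fold higher in skin. *Twist2* and *Dcn* lay within 2-fold, at 0.81 and -0.93. The dental list summed to 43.6 in tooth and 15.4 in skin. Without *Lhx6*, whose probe shares 20 bases with probes of 23 other genes, it summed to 31.7 in tooth and 2.77 in skin. The fibroblast list summed to 709.7 in tooth and 143.3 in skin, and its brightest marker in tooth was *Col1a1*, at 8.85. Cartilage markers were at least 2-fold higher in tooth for 2 of 3 measured, and macrophage markers for 1 of 5. The part of these cells in the tooth-side values of *Slit2*, *Epha3*, *Epha7* and *Unc5c* was not tested.

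Other cues, co-receptors and adhesion receptors of axon guidance, a list of 29 genes, had 25 measured. Past 2-fold were 9 on the skin side (36%) and 6 on the tooth side (24%), beside 14.2% and 15.5% of all measured genes. Among the 6 are *Ntng2* and *Hgf*, whose skin values were not well above background and whose bounds gave no fold. The list's median was 0.52, smaller in size than the shift of -0.62 that spike-in scaling gave. *Chl1*, a cell adhesion molecule and co-receptor for semaphorin 3A, stood at -0.39 in tooth and 2.80 in skin. *Cxcr4*, the receptor for the chemokine Cxcl12, stood at -2.37 and 0.08. Its ligand *Cxcl12* was on the other side, at 2.66 in tooth and -0.19 in skin, and *Ntng1*, a membrane-anchored netrin G, stood at 2.04 and -2.11.

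All 57 listed cytoplasmic effectors of guidance receptors were measured, with 4 past 2-fold on the skin side (7.02%), 13 on the tooth side (22.8%) and a median of -0.14, beside 14.2% and 15.5% of all measured genes. *Pak3*, a kinase downstream of Rac and Cdc42, differed by 2.26, and *Ablim1*, an actin-binding protein of the netrin pathway, by 1.97. *Crmp1* and *Dpysl4*, both of the collapsin response mediator family that relays semaphorin signals, differed by -2.60 and -2.58. *Rac1*, *Cdc42* and *Rhoa*, the small GTPases shared by these pathways, differed by -0.04, -0.09 and 0.37, and the last turned to the tooth side under spike-in scaling.

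**Figure D4:**
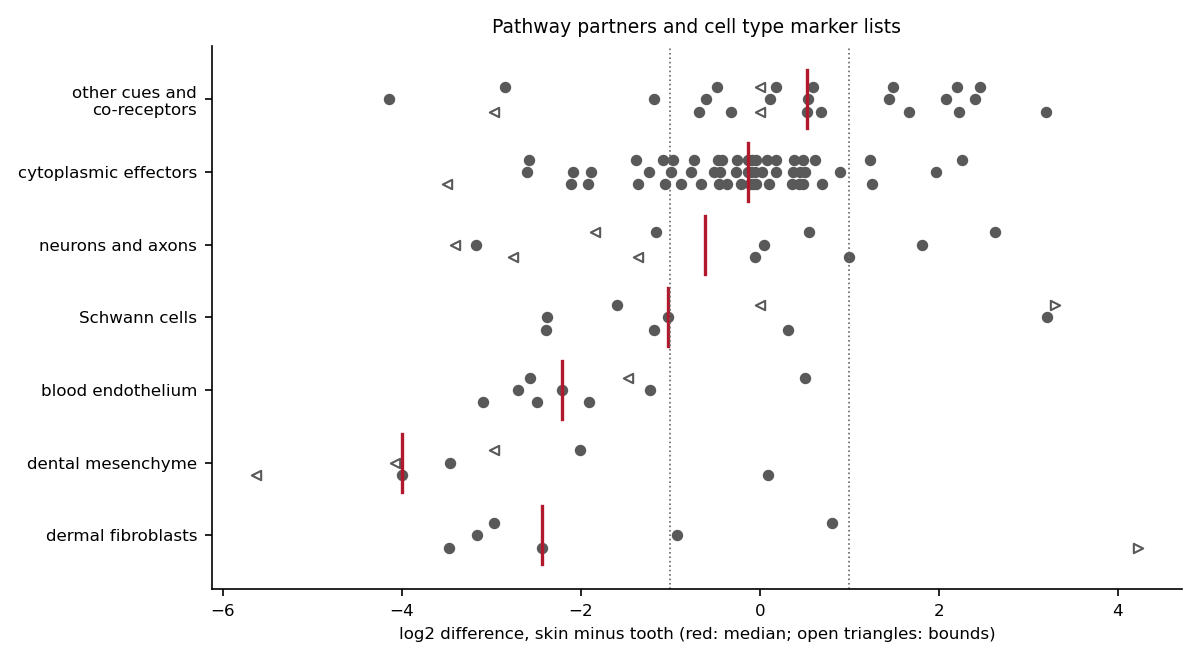
Log2 difference skin minus tooth of each measured gene in the lists of pathway partners and of cell type markers. Filled circles are genes read on both arrays, open triangles are bounds for genes read on 1 array (placed at 0 where no fold could be given), red lines are medians and dotted lines mark 2-fold. The blood endothelium median is -2.22 and that of other cues and co-receptors 0.52, the latter smaller than the shift between the scalings.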

How the data were processed

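Per the file headers, the deposited values are linear spot intensities of Agilent Feature Extraction 10.7.3.1, which the authors ran with background subtraction, detrending and surrogates for very dim spots. The authors also deposited a table holding the ratio of each processed intensity to 1 factor per array, used here as an alternative. The methods name GeneSpring, a filter on very low signal and a percentile shift.

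Each probe's log2 intensity was shifted by its array's 75th percentile over non-control probes (427.9 in tooth and 276.1 in skin). Detection required the software's well-above-background call in over 50% of a probe's spots. The brightest probe by mean over both arrays stood for a gene. Each guidance probe had 1 spot, and 0 were outliers or saturated. Bounds used the lowest signal well above background, -4.52 in tooth and -3.73 in skin. With 1 array per tissue no test was run, and the number of arrays limits the precision.

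Every guidance gene measured was described by role, with other probes where they differed by 2-fold or in direction. From each list, counts and up to 2 genes per direction were given, with further genes chosen after their values were seen. The guidance genes and lists were chosen with earlier results of these data known. Of the 99 guidance probes, 89 matched a RefSeq accession (assembly GRCm38.p6, names only), and coordinates are the array file's in mm9. The comparison of probe sequences (20 shared bases) was added after seeing the data. Alternatives were normexp (limma 3.58.1, offset 50), quantile, median and spike-in scaling (8 transcripts), other filters, probe means and the authors' table. Scripts ran in Python 3.11.15 and R 4.3.3 and were tested on simulated data.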

Additional observations from a re-analysis of the deposited data

How the results depend on the processing

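The counts of guidance genes past 2-fold stayed within 1.5 times of 9 and 18 under every alternative run, and none of the genes in those 9 and 18 changed direction. *Sema6d*, within 2-fold at 0.41, turned to the tooth side with the mean of detected probes. Without sharing probes *Sema6d* passed 2-fold on the tooth side, by its bound of 2.06-fold. The median over guidance genes (-0.13) was -0.37 with the median shift, -0.75 with spike-in scaling, -0.25 with the mean of detected probes and -0.26 without probes that share 20 bases. For semaphorins, plexins and neuropilins (-0.25) it was -0.50, -0.88 and -0.37 under the first 3 of these. For ephrins and Eph receptors (0.36) it was 0.11 with the median shift and -0.26 with spike-in scaling. For Slits, Robos, netrins and their receptors (-1.52) it was -0.87 with normexp, -1.77 with the median shift, -2.14 with spike-in scaling, -0.52 with no filter, -0.74 with the lenient detection call and -1.75 without sharing probes. The shift of the scaling moves every gene alike, and the other causes were not tested. Spike-in scaling took *Efna3*, *Sema4a* and *Sema6a* out of the skin side and added *Efna2*, *Nrp1*, *Plxna2*, *Sema4b*, *Sema4d* and *Sema6b* to the tooth side. Normexp took *Ntn4*, *Sema3d* and *Sema4f* out of the tooth side, and the mean of probes took out *Sema3a*. With no filter or the lenient call, *Robo3* and *Unc5a* passed 2-fold on the skin side. Over all genes, 2466 and 2691 past 2-fold became 1743 and 1672 with normexp and 1573 and 5639 with spike-in scaling. No paired analysis was possible because there was 1 array per tissue and the labels carry no replicate numbers, and for the same reason no array could be left out. Dim signal limits the values of genes near background, and with normexp *Epha3*, *Unc5c*, *Epha7*, *Ntn4* and *Sema6b* differed by -2.74, -2.65, -1.71, -0.64 and -0.09.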
